A study of Mus musculus with 30 samples.

Results

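Microglia of Saline offspring, the mice born to dams injected with saline, were compared between postnatal day 7 (P7) and postnatal day 20 (P20). The comparison rests on 6 of the 30 RNA-seq libraries of the series, 3 libraries labelled P7 Saline and 3 labelled P20 Saline, and covers all 14225 transcripts of the table. All 6 libraries were made from CD11b+ cells of the whole brain of C57BL/6J mice, without any drug given to the offspring. In the study's methods, a P7 library held the cells of 3 pooled brains and a P20 library those of 1 brain, and offspring of both sexes were taken, with no sex or litter in the labels. The other libraries enter where they are named: MIA offspring, whose dams received poly(I:C), a double-stranded RNA that mimics a viral infection, at the same ages, and Saline offspring at embryonic day 17 (E17) and, on control chow (CTRL), at postnatal day 60 (P60). The question was which genes separate the immature microglia of the first postnatal week from the juvenile microglia of weaning age.

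Microglia are the resident macrophages of the brain. They enter it before birth, divide and spread through it in the first postnatal weeks, and depend on signalling through the CSF1 receptor and TGF-beta. In the first week many of them, above all in the young white matter, are amoeboid, phagocytic cells rich in lysosomes, and clear dying cells and debris. With maturation they take on a branched shape, leave the cell cycle and express receptors by which they survey the tissue, among them P2ry12, Cx3cr1 and Tmem119, which are known as homeostatic genes. CD11b, the antigen bound by the isolation beads, is shared by microglia, macrophages of the brain's borders, monocytes and neutrophils.

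Expression is given as TPM, a share of a library's transcripts that is scaled to transcript length. Its formula is not given here, and genes with several RefSeq transcripts may hold only a part of their reads. Levels of different genes are compared within that limit. A change is the log2 fold change of TPM + 1, P20 over P7, from a limma fit over all 30 libraries, and a gene is called when its Benjamini-Hochberg adjusted p is under 0.05. Judged by the steps between low values, each of the 6 libraries held 9050000 to 11680000 counted reads. A single read of a 1 kb transcript then gave 0.232 to 0.314 TPM, and levels below 1 TPM stand for a handful of reads. Since the reads carry no strand, a gene can share reads with another gene of the table where their exons overlap. Only the overlap of whole gene spans was looked up, and that of exons was not tested. Among the genes named below, spans overlap for *P2ry12* (*Med12l*), *Igf2bp3* (*Malsu1*), *H2-DMa* (*Brd2*), *Xist* (*Tsix*) and *Mir7211* (*Tmcc3*). Over shorter stretches they do for *Ccnd1*, *Anln*, *Ctsb*, *Cd74* and *Fam64a*. Libraries of the same group correlated across transcripts with Pearson's r of 0.976 to 0.991, and libraries of different ages with 0.909 to 0.939.

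Oligodendrocyte RNA was higher at P20 in these libraries, and astrocyte and neuron RNA was higher by some lists of markers and not by others. The summed TPM of 23 oligodendrocyte lineage markers was 1481, 1875 and 1449 in the P7 libraries 1, 2 and 3, and 10487, 6762 and 4769.8 in the P20 libraries. For 17 astrocyte markers the sums were 2185, 2612 and 1782 at P7 and 11041, 6526 and 5718 at P20, and for 16 neuron markers 193, 242 and 224 and 615, 409 and 579. In all 3 lists the groups did not overlap, and P20 library 1 held the most. Of the neuron markers 6 were called higher and none lower, against 16.1% and 20.1% of all transcripts. Most of the rise in their sum came from *Camk2a* and *Slc17a7*. Among the markers used by the study to judge purity, microglial genes made up 98.4% ± 0.362 (SD, n = 3) of the marker TPM at P7 and 94.3% ± 2.82 (SD, n = 3) at P20, while oligodendrocyte genes made up 0.714% ± 0.223 and 4.95% ± 2.76. Both shares gave p = 0.1 in a two-sided exact permutation test, the smallest p that 3 libraries against 3 allow. The 3 neuron markers of that kind with a value made up 0.241% ± 0.0260 at P7 and less, 0.148% ± 0.0396, at P20 (exact permutation p = 0.1), and the astrocyte markers 0.387% ± 0.141 and 0.441% ± 0.303 (exact permutation p = 1). Without P20 library 1 the differences in the microglial and oligodendrocyte shares were −2.51 and 2.67 percentage points, against −4.13 and 4.24 with it. The level of the purity markers of oligodendrocytes was therefore added as a covariate to a further fit, and its values are given beside the results. Since that level itself separates the ages, the covariate multiplied the standard error, before scaling by each gene's spread, by 1.82. Its slope came from the differences within groups, so a change could become smaller or larger with it. The median log2 fold change of the astrocyte markers went from 1.38 to −0.76. That of the neuron markers went from 0.43 to −1.75. With the covariate 2 of the 16 neuron markers were called higher and 7 lower, against 5.39% and 21% of all transcripts in that fit. That of the homeostatic genes went from 0.89 to 1.26.

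Markers of further cell types differed in direction. The summed TPM of 13 border macrophage markers was 3344, 3409.6 and 3748 at P7 and 1909.98, 2205 and 1966 at P20, and that of 19 endothelial and mural markers 3869, 4497 and 4078 and 3353, 1785 and 2440.4. Choroid plexus markers were higher at P20 without overlap, though P20 library 1 lay close above the highest P7 library, with 3476, 3070.1 and 1319 at P7 and 3577, 7228 and 6720.4 at P20. Monocyte and neutrophil markers summed to 1949, 2092 and 2045 at P7 and 1701, 2061 and 2079 at P20, in overlapping ranges. The 5 microglial purity markers themselves summed to 20947, 23435 and 25476 at P7 and 29443, 36907 and 31502 at P20. The part of these shifts in the results below was not tested beyond the covariate.

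**Figure D1:**
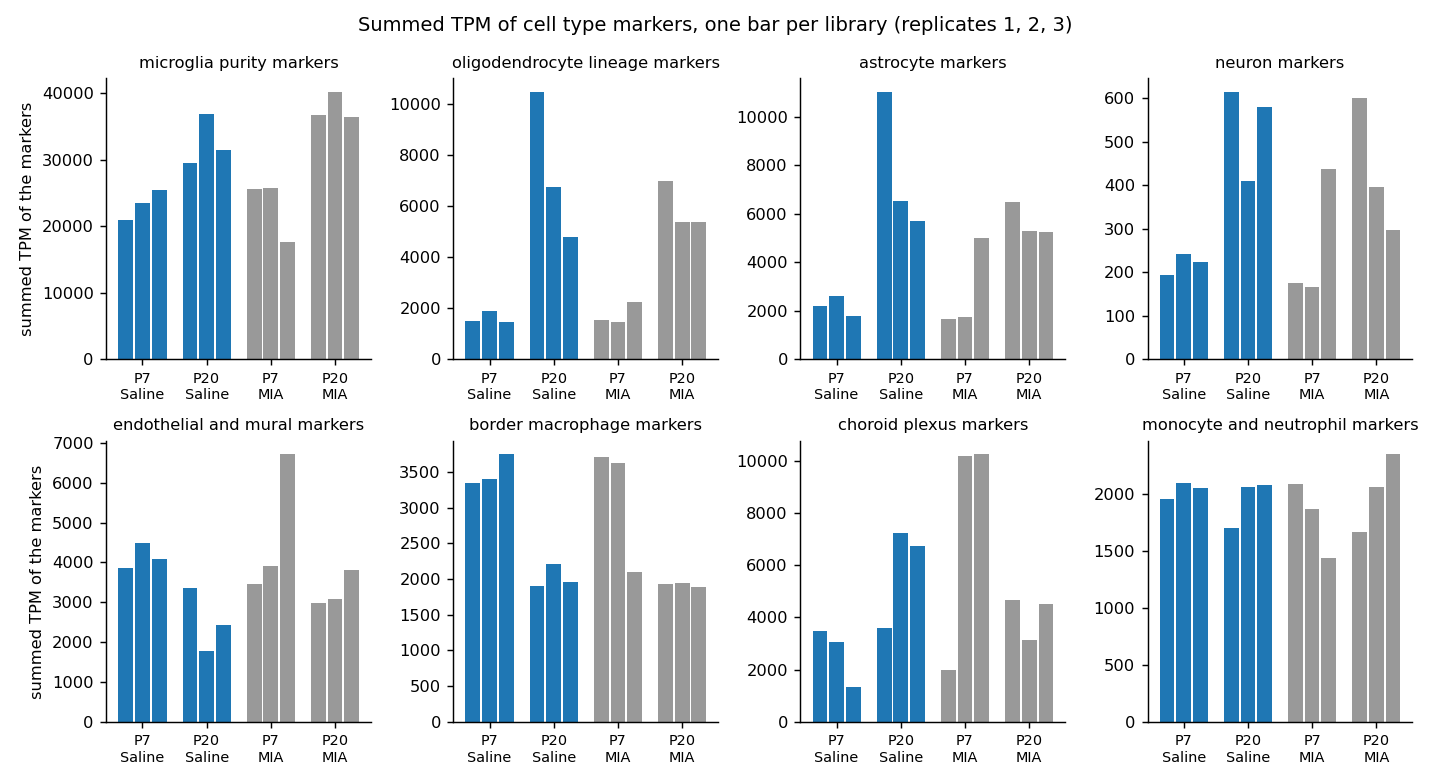
Summed TPM of the markers of 8 cell types (vertical axes, each from 0), with 1 bar per library for P7 Saline, P20 Saline, P7 MIA and P20 MIA; blue bars are Saline and grey bars MIA, in the order of replicates 1, 2 and 3. Oligodendrocyte, astrocyte and neuron markers are higher in the P20 Saline than in the P7 Saline libraries, highest in P20 Saline library 1, and border macrophage markers are lower.

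Sex is a further difference in composition. *Xist*, which is expressed from the inactive X chromosome of females, had 128, 128 and 106 TPM in the P7 pools and 193, 188 and 172 TPM at P20. *Ddx3y*, a gene of the Y chromosome, had 61.7, 55.7 and 64.3 TPM in the P7 pools and 0.14, 0.06 and 0.06 TPM at P20. The P7 pools thus held RNA of both sexes and the P20 brains were Xist-positive with almost no Y-linked RNA, and *Ddx3y* and *Eif2s3y* stood among the 12 largest falls. Age and the sex of the animals cannot be told apart for such genes, nor for any other gene whose level depends on sex. With the *Xist* level as a covariate, 5090 transcripts were called, against 5151 without it. In that fit *Ddx3y* was still called lower, at −5.19 (limma adjusted p = 1.08e-05), as was *Eif2s3y*, at −5.23 (limma adjusted p = 2.03e-05). The covariate thus did not remove the difference in sex, and the similar count does not show that sex matters little.

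Between P7 and P20, 5151 of 14225 transcripts were called (36.2%), 2289 of them higher at P20 (16.1% of all) and 2862 lower (20.1%). A change of at least 2-fold was found in 1963 called transcripts, 1025 higher and 938 lower. The median log2 fold change of all transcripts was −0.02. Of the called transcripts, 4766 had no overlap between the 3 P7 and the 3 P20 libraries, as had 6634 of all transcripts (46.6%). The split between higher and lower moved little with the scaling, from 44.4% higher to 49.6% under median-ratio scaling and to 47.7% after quantile normalization. With the oligodendrocyte covariate it moved a great deal: 767 transcripts were called higher and 2989 lower, so that 20.4% of the calls were higher. Counts of list members with the covariate are to be read against these totals, which are 5.39% of all transcripts for the rises and 21% for the falls. Of the 2289 called higher, 535 were also called higher with the covariate, and of the 2862 called lower, 1286 were also called lower.

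**Figure D2:**
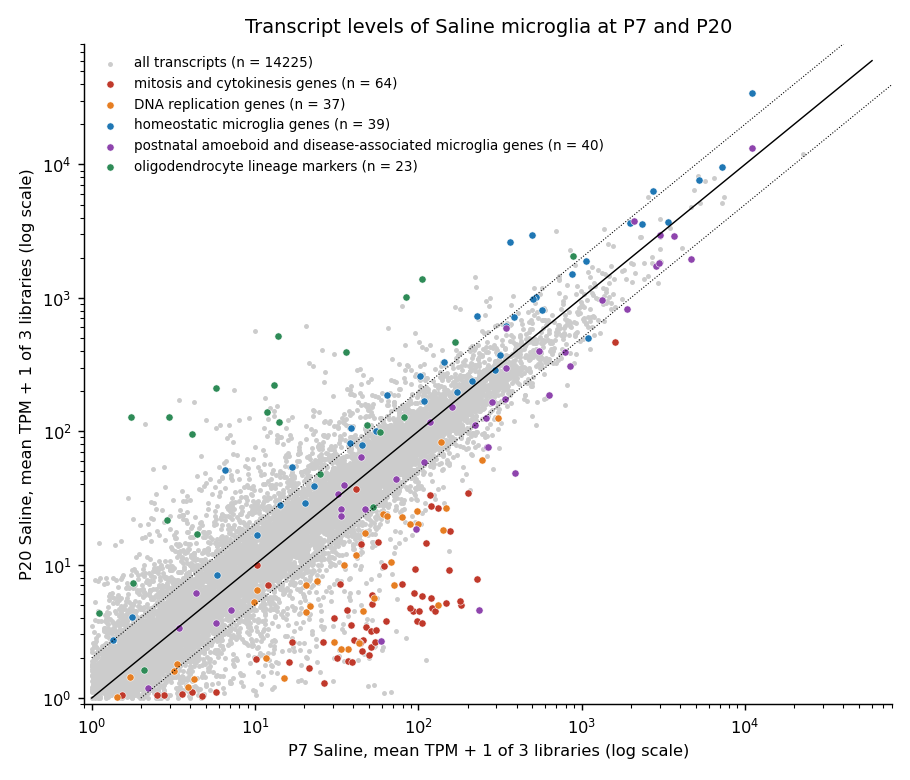
Mean TPM + 1 of each transcript in the 3 P7 Saline libraries (horizontal, log scale) and the 3 P20 Saline libraries (vertical, log scale); the solid line marks equal levels and the dotted lines a 2-fold difference, and 5 gene lists are coloured. Mitosis and DNA replication genes lie below the diagonal, oligodendrocyte markers above it, and the homeostatic genes mostly between equality and the upper dotted line.

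The 12 largest rises were of genes best known from other brain cells. Among them were *Opalin*, *Mobp*, *Ermn*, *Mog* and *Mal*, which are expressed in myelinating oligodendrocytes, and *Camk2a*, *Slc17a7*, *Kif5a*, *Nrsn1*, *Hpcal4* and *Ddn*, which are best known from neurons. The other was *Fam107a*, known from astrocytes. *Opalin* was listed at 0.88, 0.53 and 0.78 TPM in the P7 libraries and at 176, 119 and 84.3 TPM in the P20 libraries (log2 fold change 6.14, SE 0.47, adjusted p = 4.59e-10), in the same order over the P20 libraries as the summed oligodendrocyte markers. *Camk2a*, the alpha subunit of a kinase of excitatory synapses, rose from 0.9, 1.14 and 1.35 TPM to 130.4, 88.4 and 119 TPM (log2 fold change 5.72, SE 0.40, adjusted p = 1.31e-10). With the covariate the changes of the 12 genes ran from 1.44 for *Mog* to 3.61 for *Camk2a*, against 4.53 to 6.14 without it. In bulk RNA, more cells of a type and more of an RNA per cell cannot be told apart. The study names *Camk2* as a hub in microglia and reports it in sorted microglia. For synaptic genes raised in MIA microglia, it holds contamination by neurons to be unlikely.

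Cell cycle genes fell together. Of 64 mitosis and cytokinesis genes with a value, of 77 listed, 62 were lower at P20 and none was higher, with a median log2 fold change of −3.58, against −0.02 for all transcripts and 20.1% of all transcripts called lower. With the oligodendrocyte covariate 60 were lower, at a median of −3.46, and without any single P7 or P20 library 62 were. The 2 exceptions, named after their values were seen, were *Anln*, an actin-binding protein of the cleavage furrow, at −0.29 (adjusted p = 0.611) but −2.03 (adjusted p = 0.0141) with the covariate, and *Pttg1*, the securin that holds back sister chromatid separation, with −0.01 (adjusted p = 0.972).

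*Mki67*, which encodes the proliferation marker Ki-67 and lies at chr7:135689784-135716450 in GRCm38, had 176, 171 and 200.1 TPM in the P7 libraries and 4.56, 4.6 and 2.84 TPM in the P20 libraries (log2 fold change −5.22, SE 0.24, adjusted p = 6.85e-13). *Top2a*, the topoisomerase that untangles chromosomes before division, went from 179, 245 and 263 TPM to 8.68, 7.65 and 4.06 TPM (log2 fold change −4.92, SE 0.28, adjusted p = 5.31e-12). All 3 P20 libraries held under 10 TPM of either gene, and all P7 libraries over 170 TPM. *Ube2c*, the ubiquitin-conjugating enzyme of the anaphase-promoting complex, had 151, 187 and 196 TPM at P7 and 5.74, 4.8 and 2.46 TPM at P20. *Ccnb2*, a cyclin of mitotic entry, had 142, 149 and 146 TPM and 4.29, 4.71 and 3.34 TPM, and *Cdk1*, the kinase it activates, 172, 147 and 142 TPM and 9.46, 7.32 and 7.6 TPM. The P20 libraries also lay below the P7 libraries without overlap for *Pbk*, a mitotic kinase (log2 fold change −4.97, SE 0.37, adjusted p = 3.53e-10), and *Fam64a* (log2 fold change −4.92, SE 0.29, adjusted p = 7.29e-12).

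The promoters of these genes share short sequence elements known from the cell cycle, and they are shown because the genes that carry them fell together. The cell cycle homology region (CHR), searched as TTTGAA on both strands, lies in many promoters that are silenced outside of division, often near CCAAT, the box bound by NF-Y. RefSeq windows of GRCm38.p6, from 250 bases before to 50 after a gene's start, were available for 54 of the mitosis genes in 56 windows. TTTGAA was found in 38 of these 56 windows (67.9%) and in 12.2% of the 12950 windows of all genes in the table. CCAAT was found in 39 of 56 (69.6%) and in 37.0% of all windows, and both elements together in 31 of 56 (55.4%) and in 4.79%. Below are the 200 bases before the start site that the RefSeq window uses for 5 of the genes, with each TTTGAA or CCAAT, or its reverse complement TTCAAA or ATTGG, in capitals.
*Mki67*, chr7:135716380-135716579, minus strand: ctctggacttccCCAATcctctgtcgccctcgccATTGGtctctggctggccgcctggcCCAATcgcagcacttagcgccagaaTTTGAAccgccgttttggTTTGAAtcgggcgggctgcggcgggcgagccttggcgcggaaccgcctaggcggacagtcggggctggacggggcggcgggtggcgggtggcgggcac
*Ube2c*, chr2:164769729-164769928, plus strand: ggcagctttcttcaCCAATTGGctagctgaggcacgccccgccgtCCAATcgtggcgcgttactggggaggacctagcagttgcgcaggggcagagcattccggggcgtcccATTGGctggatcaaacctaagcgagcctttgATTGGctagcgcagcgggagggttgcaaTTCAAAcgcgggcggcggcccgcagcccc
*Top2a*, chr11:99024190-99024389, minus strand: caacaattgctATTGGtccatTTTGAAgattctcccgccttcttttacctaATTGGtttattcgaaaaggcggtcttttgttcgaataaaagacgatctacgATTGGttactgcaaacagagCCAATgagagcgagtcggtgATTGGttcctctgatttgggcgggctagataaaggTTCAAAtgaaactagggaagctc
*Ccnb2*, chr9:70421555-70421754, minus strand: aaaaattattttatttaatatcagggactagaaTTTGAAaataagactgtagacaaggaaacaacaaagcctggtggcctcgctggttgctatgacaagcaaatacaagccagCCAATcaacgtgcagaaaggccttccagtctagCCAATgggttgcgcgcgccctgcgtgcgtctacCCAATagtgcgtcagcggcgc
*Cdk1*, chr10:69352913-69353112, minus strand: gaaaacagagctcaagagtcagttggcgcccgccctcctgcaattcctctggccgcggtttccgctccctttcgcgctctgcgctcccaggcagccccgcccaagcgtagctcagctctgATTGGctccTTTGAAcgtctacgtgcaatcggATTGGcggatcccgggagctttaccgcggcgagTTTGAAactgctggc

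The annotated span of *Mki67* begins 71 bases before that start site and that of *Top2a* 10 bases before it, so these stretches overlap the span of their gene. Each of the 5 stretches holds at least 1 CHR element and at least 2 CCAAT boxes. Counted from the start site of the window, the CHR elements of *Cdk1* begin at −71 and −15, those of *Mki67* at −116 and −98, and that of *Ube2c* at −29. In *Ube2c* a pair of CCAAT boxes on opposite strands overlaps at −186 and −183. A match of letters is a description of the sequence and not evidence of binding.

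Genes of DNA replication fell as well, by less. Of 37 with a value, of 46 listed, 36 were lower at P20 and none was higher, against 20.1% of all transcripts called lower, at a median of −1.99. The exception, named after its value was seen, was *Dut*, which was listed at under 1 TPM in all 6 libraries and had a log2 fold change of −0.27 (adjusted p = 0.359). With the covariate 25 were lower. *Rrm2*, a subunit of the reductase that makes deoxyribonucleotides, went from 105, 145 and 139.7 TPM at P7 to 6.21, 3.46 and 2.23 TPM at P20 (log2 fold change −4.79, SE 0.32, adjusted p = 5.55e-11). *Chaf1b*, which loads histones behind the fork, had 54.9, 39.5 and 33.5 TPM and 2.14, 1.46 and 1.2 TPM, and *Clspn*, a checkpoint adaptor, 34.4, 32.2 and 30.8 TPM and 1.64, 1.23 and 1.15 TPM. The most abundant members kept a part of their level. *Mcm3*, of the replicative helicase, had 237, 254 and 247 TPM at P7 and 57.9, 61.8 and 59.5 TPM at P20, and *Pcna*, the sliding clamp, 305, 317 and 297 TPM and 120.3, 109 and 148 TPM. *Tubb5*, the tubulin that was the most abundant of the mitosis list, also stayed abundant, with 1564, 1615 and 1597 TPM at P7 and 425, 411 and 549.6 TPM at P20. *Pcna* was no longer called with the covariate, at −0.67 (adjusted p = 0.0706).

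The element of E2F, the factor family that turns on S phase genes, was searched on both strands as TTCCCGCC and as TTTGGCGC. Either form was present in 11 of 32 windows of replication genes (34.4%) and in 4.52% of all windows. PU.1, the factor of macrophage identity, had its element, searched as GAGGAAGT, in 2 of 27 windows of homeostatic genes (7.41%) and in 3.10% of all. The E2F element is shown in capitals in the 140 bases before the start of *Rrm1*, the large subunit of the same reductase.
*Rrm1*, chr7:102441555-102441694, plus strand: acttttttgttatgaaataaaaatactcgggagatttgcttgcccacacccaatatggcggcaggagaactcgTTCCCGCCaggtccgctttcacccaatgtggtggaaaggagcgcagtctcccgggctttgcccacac

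*Rrm1*, named for this element after its values were seen, had 133, 152 and 158 TPM at P7 and 25.6, 25.4 and 25.6 TPM at P20 (log2 fold change −2.48, SE 0.20, adjusted p = 1e-09). The E2F element of its promoter begins 67 bases before the start site.

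The regulators of G1 were divided. Of 18 with a value, 6 were lower at P20 and 2 higher, against 20.1% and 16.1% of all transcripts. With the covariate the counts were 4 and 2. *Cdkn2c*, which encodes the CDK inhibitor p18, fell from 66.04, 76.8 and 75.4 TPM to 4.63, 4.66 and 4.21 TPM (log2 fold change −3.74, SE 0.25, adjusted p = 6.94e-11), beside *Ccne1*, the cyclin of S phase entry, with 26.4, 34.1 and 26.2 TPM and 2.41, 2.14 and 2.78 TPM. The D cyclins, which couple growth factor signals to the cycle, were not called. *Ccnd1* had 124, 273 and 257 TPM at P7 and 161, 171 and 196 TPM at P20, with P7 library 1 below and P7 libraries 2 and 3 above the P20 range (log2 fold change −0.23, SE 0.22, adjusted p = 0.444). Without P7 library 1 its change was −0.59 (adjusted p = 0.0174). *Ccnd2* had 37.6, 67.96 and 65.8 TPM and 36.4, 31.3 and 36.02 TPM (log2 fold change −0.66, SE 0.44, adjusted p = 0.257).

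**Figure D3:**
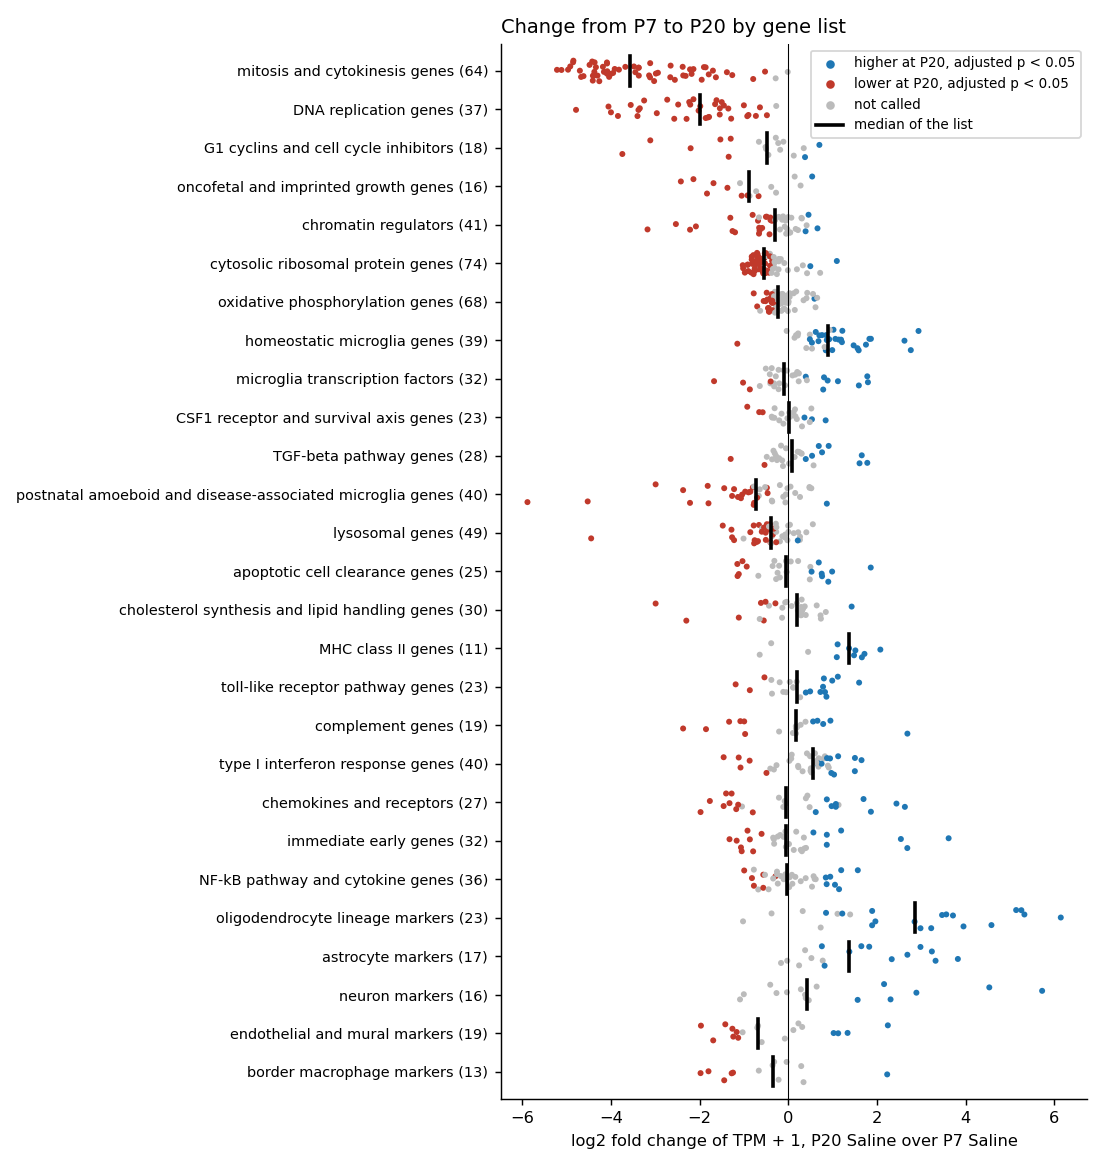
Log2 fold change of TPM + 1, P20 Saline over P7 Saline (horizontal axis), of every member with a value of the gene lists named on the vertical axis (number of members in parentheses). Each point is a gene, blue if called higher, red if called lower and grey if not called, and the black bar is the list's median. Mitosis and replication genes lie almost wholly below 0, MHC class II and homeostatic genes mostly above it, and the oligodendrocyte markers reach the largest rises.

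Most homeostatic microglia genes rose. Of 39 with a value, of 46 listed, 28 were higher at P20 and 1 was lower, against 16.1% of all transcripts called higher, and their median log2 fold change was 0.89. With the covariate 26 were higher and none was lower, at a median of 1.26. Without P7 library 1 20 were higher, and without P20 library 1 27. The list was drawn from genes known for adult microglia and is not independent of earlier results of these data.

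*Tmem119*, a membrane protein known as a marker of mature microglia at chr5:113793729-113800396, had 341, 583 and 558 TPM in the P7 libraries and 2714, 3434 and 2774 TPM in the P20 libraries (log2 fold change 2.62, SE 0.22, adjusted p = 3.68e-09). *Selplg*, which encodes the selectin ligand PSGL-1, had 192, 450.2 and 443 TPM and 2518, 3192 and 2155 TPM (log2 fold change 2.94, SE 0.26, adjusted p = 7.51e-09). In both genes the lowest P20 library stood over 4 times above the highest P7 library, and P7 library 1 was the lowest of all. *Upk1b*, a tetraspanin, had 5.19, 6.67 and 4.83 TPM at P7 and 67.9, 65.6 and 17.8 TPM at P20, where library 3 was far below the other 2. Without that library its change was 3.38, against 2.76 with it. *Cst3*, the secreted cathepsin inhibitor cystatin C, was the most abundant member, at 11133, 11091 and 11045 TPM in the P7 libraries and 31649, 44141 and 26428 TPM in the P20 libraries (log2 fold change 1.59, SE 0.26, adjusted p = 5.59e-05). *Slc2a5*, the fructose transporter found on microglia, had 38.5, 127 and 137 TPM and 282, 347 and 149.99 TPM (log2 fold change 1.47, SE 0.34, adjusted p = 0.00176).

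The receptors by which microglia are most often recognised were abundant at P7 already and changed by less. *P2ry12*, the ADP receptor that guides processes, had 1434, 2099 and 2358 TPM at P7 and 3841, 4538 and 2477 TPM at P20 (log2 fold change 0.87, SE 0.24, adjusted p = 0.0058), so P20 library 3 lay close above the highest P7 library. The gene lies within the span of *Med12l*, and whether the 2 genes share exons, and so reads, was not tested. Its change was 0.66 (adjusted p = 0.0533) without P7 library 1, 0.98 (adjusted p = 0.093) with the covariate, and had an adjusted p = 0.0501 with the replicate number as a block over both ages. *Cx3cr1*, the receptor of neuronal fractalkine, had 1880.2, 2402 and 2740.5 TPM and 3275, 3839 and 3560.3 TPM (log2 fold change 0.62, SE 0.19, adjusted p = 0.0128). Without P7 library 1 its change was 0.47 (adjusted p = 0.0912), and without P20 library 2 0.56 (adjusted p = 0.0514). With median-ratio scaling the call was lost as well, at 0.65 (adjusted p = 0.0586). *Csf1r*, the receptor on which microglia depend, had 4990.2, 5107 and 5606 TPM and 7263, 8551 and 6958 TPM (log2 fold change 0.53, SE 0.19, adjusted p = 0.0329). That call did not hold without any one of P7 library 1, P7 library 2, P20 library 1 or P20 library 2, with adjusted p from 0.0555 to 0.126 and changes from 0.44 to 0.56. It was also lost with median-ratio scaling (0.56, adjusted p = 0.132), quantile normalization (0.29, adjusted p = 0.0636) and the replicate block over both ages (adjusted p = 0.0806). The single member that fell was *Gas6*, a ligand of TAM receptors, with 986, 1104 and 1192 TPM at P7 and 424, 489 and 572 TPM at P20 (log2 fold change −1.15, SE 0.16, adjusted p = 7.94e-06), and it was not called with the covariate (−0.62, adjusted p = 0.0873).

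Of 32 microglial transcription factors, 8 were higher and 4 lower, against 16.1% and 20.1% of all transcripts, at a median of −0.09. With the covariate 7 were higher and 1 lower. Without P7 library 2 or without P20 library 3, 5 were higher. *Smad7*, an inhibitor and target of TGF-beta signalling, had 78.3, 80.8 and 85.5 TPM at P7 and 331, 289.6 and 235 TPM at P20 (log2 fold change 1.78, SE 0.19, adjusted p = 1.9e-07). *Bhlhe41*, a repressor also active in macrophage identity, had 0.13, 0.5 and 0.11 TPM and 2.11, 4.33 and 3.74 TPM, a rise from almost no reads (log2 fold change 1.79, SE 0.20, adjusted p = 1.99e-07). *Sall1*, the zinc-finger factor that keeps microglial identity, had 319, 382 and 389 TPM and 614, 686 and 579 TPM (log2 fold change 0.79, SE 0.29, adjusted p = 0.0394). This call rested on all 6 libraries: leaving out any 1 gave changes from 0.70 to 0.84, with adjusted p from 0.0563 without P20 library 3 to 0.126 without P7 library 1, and with the covariate its change was 0.50 (adjusted p = 0.518). *Tfec*, a factor of the MiT family that drives lysosomal genes, fell from 21.7, 28.5 and 39.4 TPM to 6.72, 6.43 and 13.5 TPM (log2 fold change −1.67, SE 0.30, adjusted p = 0.000137), and had −0.71 (adjusted p = 0.296) with the covariate.

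Some of the rises were as large, or nearly so, with the oligodendrocyte covariate as without it. After the values were seen, 364 genes were counted that were called higher in both fits and kept at least 0.8 of their change. They also had a mean of at least 10 TPM at P20 and no overlap between groups. In both fits 535 of the 14225 transcripts were called higher, and 46.6% of all transcripts had no overlap. Keeping the change was part of the choice, so it is not a result about these 364 genes. The 12 with the largest change included *Selplg* and *Upk1b* and no other gene of the homeostatic list. *Il7r*, the receptor of interleukin 7, had 1.39, 1.18 and 1.87 TPM at P7 and 52.5, 27.6 and 18.3 TPM at P20 (log2 fold change 3.65, SE 0.28, adjusted p = 6.3e-10). *Adrb1*, the beta-1 adrenergic receptor, had 9.58, 5.4 and 5.37 TPM and 56.5, 92.1 and 48.3 TPM (log2 fold change 3.09, SE 0.29, adjusted p = 2.26e-08), and *Trpm2*, a cation channel opened by oxidative stress, 5.04, 5.15 and 5.66 TPM and 34.3, 39.7 and 60.1 TPM (log2 fold change 2.82, SE 0.20, adjusted p = 1.31e-10). *Lrrc3*, a protein with leucine-rich repeats, had 13.7, 17.4 and 13.7 TPM at P7 and 95.9, 129.5 and 135 TPM at P20 (log2 fold change 2.92, SE 0.15, adjusted p = 1.18e-12). *Mlph*, a linker of vesicles to myosin, had 5.32, 5.47 and 4.37 TPM and 41.7, 44.9 and 37.2 TPM, and *6030468B19Rik* 1.95, 2.19 and 3.21 TPM and 25.97, 29.8 and 18.6 TPM. *Mir7211*, with a change of 3.60, lies wholly within the span of *Tmcc3*, and whether its reads come from that gene was not tested. *Hspa1b*, a stress-induced HSP70, had 28.1, 18.7 and 41.7 TPM at P7 and 546, 223 and 366 TPM at P20, beside its near-identical neighbour *Hspa1a* with 33.6, 38.8 and 50.9 TPM and 386, 154 and 313 TPM. Reads of these copies can be split between them, and heat shock genes are also known to respond to cell isolation, which was not tested.

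**Figure D4:**
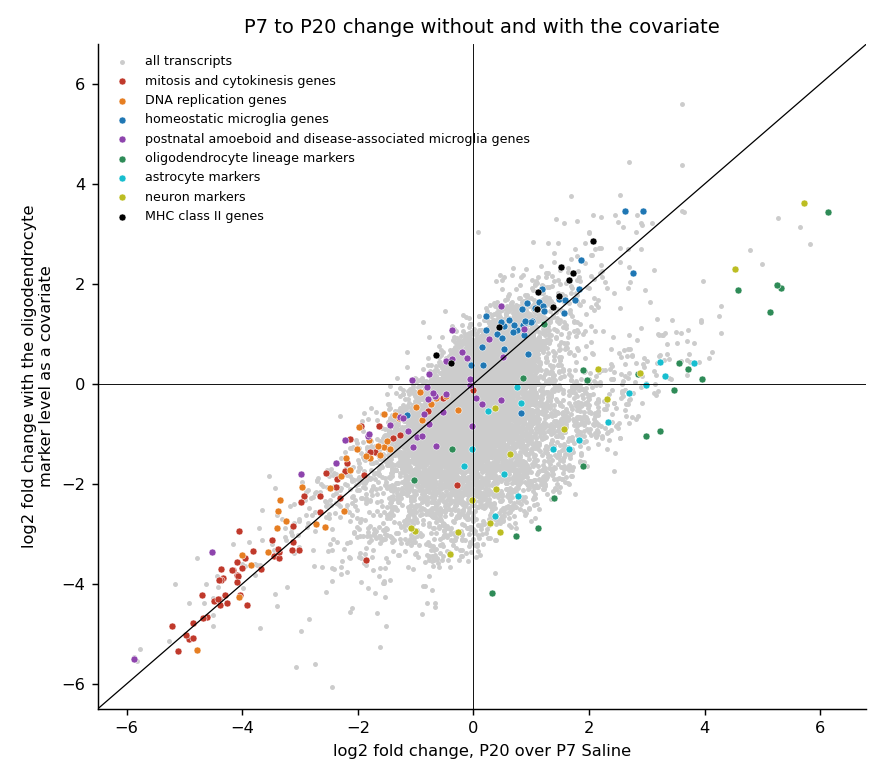
Log2 fold change, P20 Saline over P7 Saline, of each transcript without (horizontal) and with (vertical) the oligodendrocyte marker level as a covariate; the diagonal marks equal values and 8 gene lists are coloured. Most cell cycle, homeostatic and MHC class II genes lie near or above the diagonal, and most of the oligodendrocyte, astrocyte and neuron markers lie far below it.

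Of 53 genes listed for amoeboid and disease-associated microglia, 40 had a value, of which 22 were lower at P20 and 1 was higher, against 20.1% of all transcripts called lower and 16.1% called higher, with a median of −0.74. With the covariate 7 were lower, at a median of −0.37, and without P20 library 1 18. *Gpnmb*, a glycoprotein of lysosome-rich phagocytes at chr6:49036518-49058182, stood among the 12 largest falls, from 221, 256 and 229 TPM to 1.91, 1.69 and 7.15 TPM (log2 fold change −5.88, SE 0.33, adjusted p = 4.23e-12). *Hpse*, the heparanase that cuts heparan sulphate, went from 52.8, 60.5 and 61.8 TPM to 0.82, 1.54 and 2.69 TPM (log2 fold change −4.52, SE 0.27, adjusted p = 1.13e-11). *Lpl*, lipoprotein lipase, had 260.3, 429 and 486 TPM at P7 and 38.6, 42.8 and 61.6 TPM at P20 (log2 fold change −2.99, SE 0.29, adjusted p = 2.37e-08), and *Itgax*, the integrin CD11c, 74.2, 105 and 107 TPM and 14.8, 18.6 and 19.04 TPM (log2 fold change −2.37, SE 0.21, adjusted p = 5.91e-09). These 4 genes did not overlap between ages and were called lower with the covariate too, at −5.51, −3.36, −1.80 and −1.58.

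Other known members of this state were not called or are hard to read. *Ctsd*, the most abundant cathepsin, had 12566, 10415 and 10253 TPM at P7 and 12122, 14708 and 13011 TPM at P20, in overlapping ranges (log2 fold change 0.26, SE 0.22, adjusted p = 0.374). *Spp1*, osteopontin, was listed at only 0.69, 1.24 and 1.67 TPM and 0.21, 0.18 and 0.19 TPM (log2 fold change −0.86, SE 0.23, adjusted p = 0.00466), with −0.60 (adjusted p = 0.29) under the covariate, and *Apoe* at 9.9, 4.75 and 3.87 TPM and 4.22, 1.64 and 4.79 TPM (log2 fold change −0.65, SE 0.31, adjusted p = 0.105), far below the levels known for microglia. Without P7 library 3 *Apoe* had a change of −0.88 (adjusted p = 0.0451). *Apoe* has 3 rows in the table, of which the highest is given. Both genes have several RefSeq transcripts, and in the 6 libraries the median level was 6.20 TPM for the 5766 transcripts of genes with 2 or more curated RefSeq transcripts, against 25.5 TPM for the 8449 of genes with 1. Whether the counting left out reads shared between transcripts was not tested, and the levels of such genes may hold a part of their reads.

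Of 49 lysosomal genes with a value, 24 were lower and 1 was higher, against 20.1% and 16.1% of all transcripts, at a median of −0.39. The count was 15 lower with median-ratio scaling and 8 with the covariate. *Atp6v0d2*, a subunit of the proton pump made by osteoclasts and some macrophages, stood apart, with 22.2, 31.96 and 32.3 TPM at P7 and 0.38, 0.33 and 0.34 TPM at P20 (log2 fold change −4.45, SE 0.27, adjusted p = 1.13e-11). *Ctsb*, cathepsin B, had 5116, 4392 and 4597 TPM and 1676, 1931 and 2283 TPM, and *Gusb*, beta-glucuronidase, 936, 881 and 886 TPM and 288, 292 and 399 TPM. Both fell, with changes of −1.27 and −1.48, and neither was called with the covariate (−0.67, adjusted p = 0.086, and −0.41, adjusted p = 0.205).

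Of lipid handling outside the lysosome, single genes fell. *Plin2*, the coat protein of lipid droplets, went from 552, 468 and 552 TPM to 80.5, 90.2 and 161 TPM (log2 fold change −2.30, SE 0.21, adjusted p = 8.9e-09), and *Abca1*, the exporter of cholesterol, from 729, 522 and 507 TPM to 251, 229 and 326 TPM (log2 fold change −1.12, SE 0.16, adjusted p = 8.83e-06). *Abca1* was not called with the covariate, at −0.62 (adjusted p = 0.0842). Of the 30 cholesterol and lipid genes, 7 were lower and 1 was higher, a share close to the 20.1% of all transcripts called lower, and their median was 0.20. With the covariate 16 were lower, at a median of −1.06, and with median-ratio scaling, without P7 library 1 or without P20 library 2 4. *Slc16a1*, the lactate transporter MCT1 and a member of the glycolysis list, had 462, 559.6 and 564 TPM at P7 and 261, 103 and 129.99 TPM at P20 (log2 fold change −1.79, SE 0.29, adjusted p = 4.98e-05).

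Some genes of border macrophages were also lower. *Mrc1*, the mannose receptor CD206, had 679.6, 873 and 983 TPM at P7 and 281, 319 and 319 TPM at P20 (log2 fold change −1.45, SE 0.22, adjusted p = 2.32e-05), and *Pf4*, platelet factor 4, 710.3, 568 and 610.1 TPM and 168, 264 and 129 TPM (log2 fold change −1.80, SE 0.34, adjusted p = 0.000245). Both stand in the amoeboid list as well and were not called with the covariate (adjusted p = 0.107 and 0.216). *Ccl24*, a chemokine of the border macrophage list, had 87.7, 114 and 173 TPM and 22.9, 35.7 and 31.9 TPM (log2 fold change −1.98, SE 0.30, adjusted p = 2.11e-05). *Cd209a*, a lectin of border macrophages and dendritic cells, went the other way, with 0.18, 4.61 and 2.64 TPM and 11.2, 18.4 and 9.44 TPM (log2 fold change 2.23, SE 0.37, adjusted p = 5.95e-05), or 1.58 without P7 library 1. Of the 13 border macrophage markers, 5 were lower and 1 was higher, against 20.1% and 16.1% of all transcripts. With the covariate the counts were 1 and 2. Fewer such cells and less of each RNA per cell cannot be told apart here. The stefin A genes *Stfa1*, *Stfa2* and *Stfa3*, inhibitors of cathepsins that lie side by side on chromosome 16, were among the 12 largest falls too. *Stfa1* had 134, 157 and 39.7 TPM at P7 and 0.75, 0 and 2.05 TPM at P20, with P7 library 3 well below the others, and the copies are so alike that their reads are uncertain. Without P7 library 3, the changes of the 3 genes ran from −6.39 to −5.77.

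Class II genes of the MHC, which present peptides to CD4 T cells, rose for the most part. Of 11 with a value, of 13 listed, 8 were higher and none was lower, against 16.1% of all transcripts called higher, at a median of 1.37. They numbered 8 with the covariate as well, at a median of 1.75, and 8 without each single library. *H2-Ab1*, *H2-Aa* and *H2-Eb1* encode the chains of the classical molecules. *H2-Ab1* had 68.2, 79.3 and 49.3 TPM at P7 and 123, 274 and 178 TPM at P20 (log2 fold change 1.48, SE 0.28, adjusted p = 0.000227), *H2-Aa* 50.1, 71.8 and 44.2 TPM and 128, 254 and 160.2 TPM (log2 fold change 1.66, SE 0.30, adjusted p = 0.000142), and *H2-Eb1* 33.6, 44.5 and 27.6 TPM and 78.98, 173 and 114 TPM (log2 fold change 1.72, SE 0.33, adjusted p = 0.00032). P20 library 2 was the highest in each. The peptide exchange chains *H2-DMa* and *H2-DMb2* rose by 1.51 and 2.07, the latter from 5.01, 2.7 and 3.52 TPM. *Cd74*, the invariant chain, was listed at 13.9, 12.8 and 12.4 TPM and 13.3, 27.02 and 16.4 TPM and was not called (log2 fold change 0.45, SE 0.34, adjusted p = 0.322). It has 2 curated transcripts, and its level is subject to the same doubt as that of *Apoe*. These genes are also expressed by border macrophages, monocytes and B cells. The border macrophage sum was lower at P20, with 5 of its 13 markers called lower and 1, *Cd209a*, called higher. The 9 markers of T, NK and B cells summed to 28.8, 22.9 and 20.01 TPM at P7 and 19.9, 27.9 and 12.96 TPM at P20. The part of other cell types in the class II rise was not tested.

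Of 23 genes of the toll-like receptor pathway, 10 were higher and 3 lower, against 16.1% and 20.1% of all transcripts. With the covariate 9 were higher and none was lower. Without P7 library 1, 6 were higher. *Tlr3*, which senses double-stranded RNA, had 19.3, 25.4 and 27.3 TPM at P7 and 82.8, 79.7 and 60.99 TPM at P20 (log2 fold change 1.60, SE 0.17, adjusted p = 1.46e-07). *Tlr13*, a sensor of bacterial ribosomal RNA, had 96.5, 98.7 and 105 TPM and 181, 217 and 202 TPM (log2 fold change 0.99, SE 0.16, adjusted p = 5.09e-05). *Tlr2*, the receptor of lipoproteins, fell from 796, 598 and 687 TPM to 210.4, 267 and 489.5 TPM (log2 fold change −1.19, SE 0.23, adjusted p = 0.000324), but had −0.31 (adjusted p = 0.553) with the covariate.

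Complement genes went both ways, with 5 of 19 higher and 6 lower, against 16.1% and 20.1% of all transcripts. With the covariate the counts were 6 and 3. Leaving out P7 library 1, P7 library 2 or P20 library 3 left 3, 3 and 2 higher. *C1qa*, a chain of the initiator C1q that tags synapses, had 4748, 5165 and 5489 TPM at P7 and 6315, 9172 and 9102 TPM at P20 (log2 fold change 0.66, SE 0.21, adjusted p = 0.0193). This call did not hold without P7 library 1 (0.60, adjusted p = 0.0721), P20 library 2 (0.56, adjusted p = 0.0818) or P20 library 3 (0.57, adjusted p = 0.0711), nor with median-ratio scaling (adjusted p = 0.0887). *C3*, the central component, had 17.2, 23.3 and 18.9 TPM and 8.14, 9.12 and 9.07 TPM (log2 fold change −1.08, SE 0.35, adjusted p = 0.0183). Its adjusted p was 0.0685 without P7 library 2 and 0.0544 without P20 library 1, at −0.96 and −1.03. *C2*, of the classical pathway, fell from 58.2, 50.8 and 47.03 TPM to 14.99, 11.2 and 14.9 TPM (log2 fold change −1.86, SE 0.25, adjusted p = 5.14e-06). The largest rise of the list was that of *Clu*, clusterin, which astrocytes express strongly, with 223, 277 and 168 TPM at P7 and 1830.5, 1265 and 1208 TPM at P20, and it was −0.18 (adjusted p = 0.879) with the covariate.

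Of 40 interferon response genes with a value, 11 were higher and 5 lower, against 16.1% and 20.1% of all transcripts, at a median of 0.56. With the covariate 1 was higher and 1 was lower, at a median of −0.10. *Ifit3*, an antiviral effector, had 5.78, 5.79 and 7.27 TPM at P7 and 29.8, 24.7 and 13.9 TPM at P20 (log2 fold change 1.65, SE 0.42, adjusted p = 0.00394), and *Ifit1* 2.69, 2.33 and 3.32 TPM and 14.3, 7.62 and 8.13 TPM (log2 fold change 1.50, SE 0.39, adjusted p = 0.00389). With the covariate their changes were 0.28 (adjusted p = 0.798) and 0.47 (adjusted p = 0.633). *Cxcl10*, a chemokine that interferon also induces, fell from 446, 334 and 559.9 TPM to 93.2, 128 and 333 TPM (log2 fold change −1.46, SE 0.32, adjusted p = 0.000992), or −0.51 (adjusted p = 0.507) with the covariate, so the members did not move as 1 group. The core of the interferon-stimulated response element, bound by the ISGF3 complex, was present in 19 of 37 windows of these genes (51.4%) and in 3.10% of all windows. It is in capitals, as its reverse complement, in the 140 bases before the start site that the RefSeq window uses for each of these genes. The annotated span of *Ifit3* begins 410 bases before that site, so its stretch lies inside the span.
*Ifit1*, chr19:34640749-34640888, plus strand: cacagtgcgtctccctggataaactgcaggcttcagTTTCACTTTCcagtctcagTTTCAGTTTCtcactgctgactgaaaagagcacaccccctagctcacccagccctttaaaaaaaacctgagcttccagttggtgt
*Ifit3*, chr19:34583389-34583528, plus strand: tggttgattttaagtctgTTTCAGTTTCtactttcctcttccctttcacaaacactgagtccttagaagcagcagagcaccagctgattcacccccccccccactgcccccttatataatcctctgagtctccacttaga

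Of 27 chemokines and receptors, 9 were higher and 9 lower, and of 32 immediate early genes 7 and 8. For all transcripts the shares were 16.1% higher and 20.1% lower. With the covariate the chemokine list had 5 higher and 1 lower, and the immediate early list 8 higher and 1 lower. Without P7 library 1, 6 of the chemokine list and 4 of the immediate early list were higher, and without P7 library 2, 5 of the latter were lower. *Cxcl2*, which draws neutrophils, fell from 1203, 789 and 792 TPM to 262, 357 and 507 TPM (log2 fold change −1.33, SE 0.33, adjusted p = 0.0028), and was 0.11 (adjusted p = 0.89) with the covariate. *Rgs1*, a brake on G protein signalling, rose from 361, 149 and 160.4 TPM to 1133, 1372 and 1105 TPM (log2 fold change 2.54, SE 0.32, adjusted p = 1.96e-06), and by 3.77 with the covariate. Immediate early genes are known to be induced while brain cells are dissociated, and the part of that step was not tested.

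Of 74 genes of cytosolic ribosomal proteins, 49 were lower and 2 higher, against 20.1% and 16.1% of all transcripts, at a median of −0.55. The count was 46 lower with median-ratio scaling and 16 with the covariate. *Rps26* had 1011, 963 and 938 TPM at P7 and 432, 501 and 497 TPM at P20 (log2 fold change −1.03, SE 0.09, adjusted p = 7.94e-09), and *Rpl8* 3211, 2904 and 2883 TPM and 1558, 1854 and 2268 TPM (log2 fold change −0.68, SE 0.12, adjusted p = 8.77e-05), which was not called with the covariate (−0.43, adjusted p = 0.118). The changes were small and regular, and P20 library 1 had the lowest level of both. Of 68 genes of oxidative phosphorylation, 21 were lower and 2 higher, against the same 20.1% and 16.1% of all transcripts. Among those lower was *Sdhd*, of succinate dehydrogenase, with 314, 263 and 245 TPM and 164, 161 and 149.98 TPM (log2 fold change −0.78, SE 0.11, adjusted p = 5.5e-06). With the covariate 47 were lower, while 14 were without P20 library 2.

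Of 16 oncofetal and imprinted genes, 8 were lower and 1 was higher, against 20.1% and 16.1% of all transcripts, at a median of −0.90, and 10 were lower with the covariate. Without P7 library 2 or without P20 library 2 the count was 5. *Igf2bp3*, an RNA-binding protein of embryonic cells, had 73.7, 67.9 and 71.8 TPM at P7 and 13.5, 11.04 and 12.9 TPM at P20 (log2 fold change −2.42, SE 0.15, adjusted p = 2.41e-11), and *Lin28b*, which blocks let-7 maturation, 5.2, 3.45 and 2.56 TPM and 0.7, 0.31 and 0.32 TPM (log2 fold change −1.69, SE 0.19, adjusted p = 3.51e-07). Of 41 chromatin regulators 19 were lower and 3 higher, against the same 20.1% and 16.1%, or 11 and 2 with the covariate. *Hells*, a helicase that supports DNA methylation in dividing cells, went from 67.1, 47.5 and 54.5 TPM to 5.94, 3.42 and 7.1 TPM (log2 fold change −3.17, SE 0.30, adjusted p = 2.26e-08), *Lmnb1*, lamin B1 of the nuclear envelope, from 242, 313 and 305 TPM to 36.5, 39.9 and 76.9 TPM (log2 fold change −2.54, SE 0.25, adjusted p = 4.7e-08), and *Chd4*, the remodeller of the NuRD complex, from 391, 402 and 418 TPM to 241, 194 and 262 TPM (log2 fold change −0.81, SE 0.08, adjusted p = 6.32e-08).

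The other lists had calls in both directions or few calls. For comparison, 16.1% of all transcripts were called higher and 20.1% lower, and several of the counts below lie near these shares. Of 28 genes of the TGF-beta pathway, 8 were higher and 2 lower, or 5 higher without P7 library 2 and 4 lower without P7 library 3, and 7 higher and 4 lower with the covariate. Of 23 genes of the CSF1 receptor and survival axis, 3 were higher and 3 lower, or 6 higher and none lower with the covariate. For 25 genes of apoptotic cell clearance the counts were 7 higher and 5 lower, with 4 higher without P7 library 1 or without P20 library 2, and 7 higher and 3 lower with the covariate. The 20 genes of MHC class I and peptide loading had 4 higher and 1 lower, or 2 and 1 with the covariate. Glycolysis genes, 21 in number, had 9 higher and 5 lower, or 3 lower without P7 library 2, without P20 library 2 or with median-ratio scaling, and 3 higher and 4 lower with the covariate. Of 36 NF-kB pathway and cytokine genes 7 were higher and 6 lower, or 12 and 1 with the covariate. Of 36 genes of lectins, Siglecs and paired receptors 7 were higher and 2 lower, with 4 higher without P7 library 1 and 11 with the covariate. Of 35 axon guidance and protrusion genes 7 were higher and 6 lower, with 4 higher without P7 library 1 and 2 higher and 12 lower with the covariate.

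MIA offspring of the same ages, in libraries of their own, had a similar number of calls. In P20 MIA against P7 MIA, 5063 of 14225 transcripts were called (35.6%), 1858 higher (13.1% of all) and 3205 lower (22.5%). Of the Saline calls 3823 were also called in the same direction in MIA offspring, which is 74.2% of the Saline and 75.5% of the MIA calls, and 1 transcript was called in opposite directions. The mitosis list had 61 members lower in MIA offspring, at a median of −3.81, the homeostatic list 31 higher, at 1.02, and the MHC class II list 8 higher, at 1.43. *Mki67* changed by −5.14, *Gpnmb* by −5.97, *Tmem119* by 2.46 and *Selplg* by 2.95, all within 0.2 of their change in Saline offspring on the log2 scale. The interferon list counted 25 higher and 4 lower in MIA offspring, against 11 and 5 in Saline offspring. The MIA libraries differed in composition between the ages too. Mean *Ddx3y* was 53.4 ± 52.2 TPM (SD, n = 3) in P7 MIA and 0.113 ± 0.0603 TPM in P20 MIA. The summed oligodendrocyte lineage markers averaged 1737 TPM in P7 MIA and 5909 TPM in P20 MIA. Calls shared with Saline offspring therefore do not separate age from sex or cell composition. P7 MIA library 3 stood apart from the other P7 MIA libraries in its marker sums, with more astrocyte, neuron and endothelial RNA and less of the microglial purity markers, and without it 4603 transcripts were called.

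The difference between both changes, MIA minus Saline, was tested in the same fit. No transcript was called by limma, 452 had an unadjusted p under 0.05, and the smallest adjusted p was 0.998. The difference in the interferon list's counts is therefore not shown for any of its genes. The power to find a difference between both changes was not tested, so the lack of calls does not show that they were equal. The 3 genes with the smallest p were *Kbtbd4* (difference −0.97), *Zfp945* (0.67) and *Wdr72* (−1.43), each with limma adjusted p = 0.998 and with means under 2 TPM in all 4 groups.

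**Figure D5:**
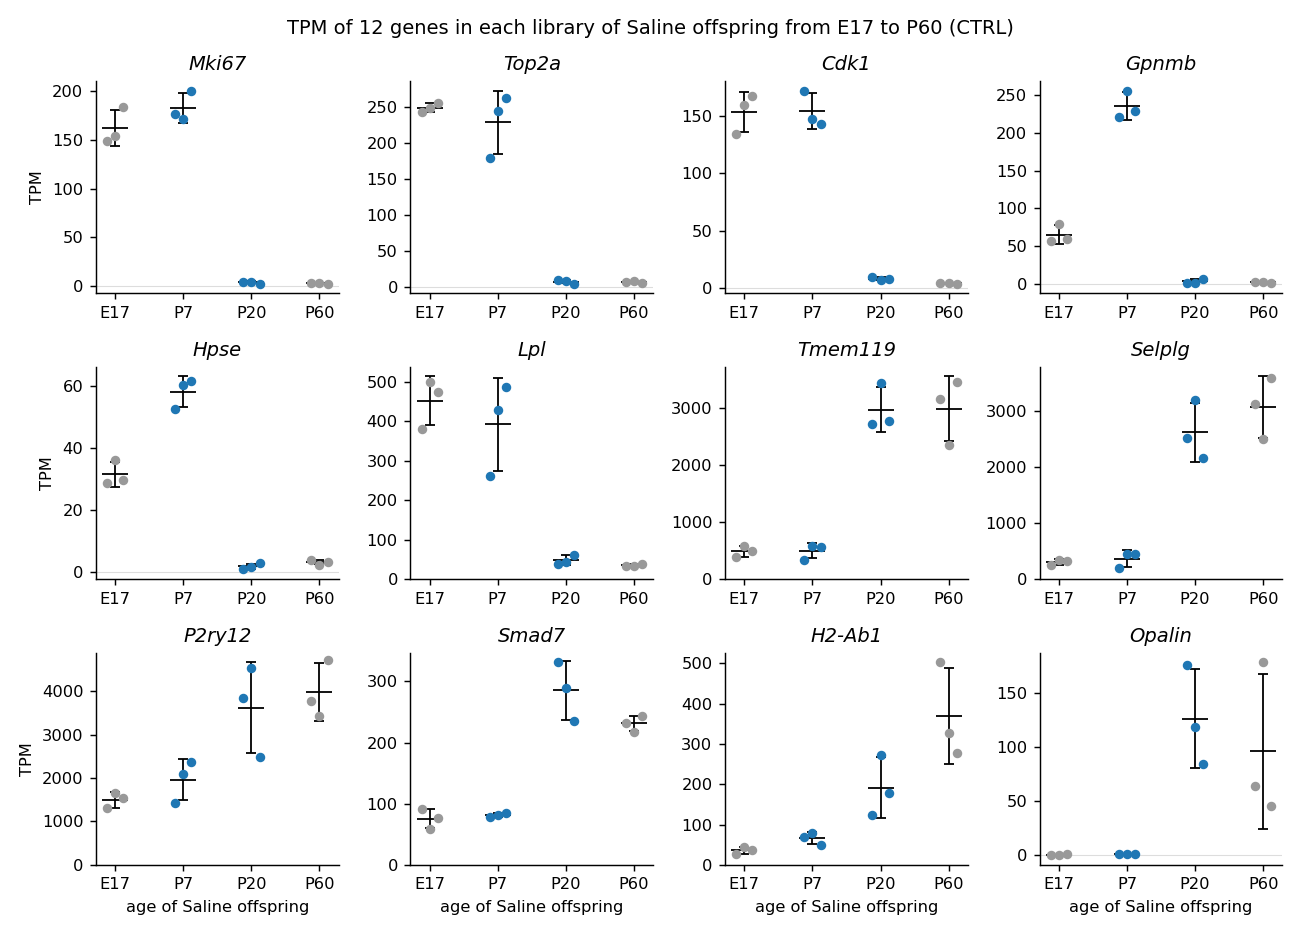
TPM (vertical axes) of 12 genes in each library of Saline offspring at E17, P7, P20 and P60 (CTRL chow), with 3 points per age and the mean ± SD in black; P7 and P20 are blue. *Mki67*, *Top2a* and *Cdk1* are high at E17 and P7 and low at P20 and P60, *Gpnmb* and *Hpse* peak at P7, and *Tmem119*, *Selplg*, *Smad7* and *H2-Ab1* are higher at P20 and P60.

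The levels at E17 and at P60 place the change in time, as a description without a test. *Mki67* stood at 162 ± 18.6 TPM (SD, n = 3) at E17 and 3.27 ± 0.539 TPM at P60, so P7 resembled E17 and P20 resembled P60. *Tmem119* likewise had 486 ± 100.03 TPM at E17 and 2993 ± 573 TPM at P60, next to 494 ± 133 TPM at P7 and 2974 ± 399 TPM at P20. *Gpnmb* was highest at P7, at 235 ± 18.5 TPM, with 65.1 ± 12.5 TPM at E17 and 2.24 ± 0.504 TPM at P60. *Atp6v0d2* behaved alike, with 4.43 ± 1.03 TPM at E17, 28.8 ± 5.71 TPM at P7 and 0.573 ± 0.0208 TPM at P60, as did *Slc16a1*, with 70.9 ± 17.5, 529 ± 57.5 and 96.3 ± 31.1 TPM. *H2-Ab1* had 35.6 ± 7.82 TPM at E17 and 369 ± 118 TPM at P60, above the 191 ± 76.4 TPM of P20, though the libraries of P20 and P60 nearly met. *Igf2bp3* descended over all 4 ages, from 99.5 ± 7.68 TPM at E17 through 71.2 ± 2.95 TPM at P7 and 12.5 ± 1.29 TPM at P20 to 2.41 ± 0.43 TPM at P60. *Lpl* overlapped between E17 and P7, with 451 ± 62.2 and 391.8 ± 117 TPM, and *Plin2* stood at 825 ± 77.4 TPM at E17 and 524 ± 48.6 TPM at P7.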

How the data were processed

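RNA was sequenced from CD11b+ cells of whole mouse brain in 30 libraries, 10 groups of 3. The authors aligned non-stranded poly(A) reads to mm10 with Rsubread, counted them per UCSC transcript with featureCounts, kept transcripts of at least 2 CPM in at least 3 libraries, and deposited TPM, whose formula is not given in the sources used here. Depth was therefore estimated from the steps between low values.

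log2(TPM + 1) was fitted with limma 3.58.1 (R 4.3.3) and empirical Bayes moderation with a trend over all 30 libraries, with Benjamini-Hochberg adjustment over 14225 transcripts, in contrasts of P20 with P7 in Saline and in MIA offspring and of their difference. Purity shares had two-sided exact permutation tests. The fit was tested on simulated data. Labels do not say that libraries of a group are separate litters, so the p-values refer to these libraries only. The spread behind them was estimated over all 30 libraries, among them P7 pools of 3 brains and P20 libraries of single brains. A difference in spread between pools and single brains was not modelled. The members and gene lists were chosen with earlier results of these data known.

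Named genes were the 12 largest rises and falls (called, not overlapping, mean of at least 10 TPM in the higher group), from each list up to 4 called members with the largest change and 2 with the highest level, a fixed set of known genes, and the 3 smallest p of the difference; others are said to be chosen after their values were seen. Alternatives were the pseudocount, low-value filters, median-ratio and quantile scaling, fits to the groups compared, the replicate number as a block, the *Xist* and oligodendrocyte covariates, and leaving out each library. Gene coordinates and the promoter windows are from RefSeq GRCm38.p6, and 14219 of 14225 transcripts matched a gene there. A few genes that the naming rule selects are not reported here.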

Additional observations from a re-analysis of the deposited data

How the results depend on the processing

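The total counts of calls stayed within 1.5 times their value under the alternatives run: 3651 to 5467 transcripts in Saline offspring (5151 as reported), 1698 to 2740 at 2-fold or more, 3942 to 5421 in MIA offspring, and 0 for the difference. The split by direction moved more, from 2289 to 767 higher with the oligodendrocyte covariate, as did several gene lists, whose counts are given in the report. Leaving out 1 library gave 4051 to 4800 calls in Saline and 4060 to 4603 in MIA offspring, and differences in purity share of −5.02 to −2.51 points for microglia and 2.67 to 5.26 for oligodendrocytes. Replicate numbers are shared between groups, but the deviations of same-numbered P7 and P20 Saline libraries had r of −0.0564, −0.024 and 0.0157, so the numbers were not taken as pairs. Within an age the r was 0.125, −0.103 and −0.017 for P7 Saline with P7 MIA and 0.245, 0.112 and 0.138 for P20 Saline with P20 MIA, which bears on the difference between both changes, and that difference had 0 calls with either block. With the replicate block within an age 5467 transcripts were called, and with the block over both ages 3651, against 4158 without a block in the same libraries. Of the named genes, the oligodendrocyte covariate reversed the sign of *Ccnd1* (0.17), *Clu* (−0.18), *Cxcl2* (0.11) and *Xist* (−0.82), none of them called with it, and ended the call of 18 others. *Anln*, called lower with the covariate only (−2.03), and *Pttg1*, not called, changed sign as libraries were left out, from −0.67 without P20 library 1 to 0.092 without P20 library 3 for *Anln* and from −0.27 without P7 library 3 to 0.13 without P7 library 1 for *Pttg1*, which was at 0.012 with median-ratio scaling. The cause was not tested. At this depth, changes of transcripts below 1 TPM are hard to detect.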
